A study of Homo sapiens with 9 samples.

Results

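Nuclear genes for respiratory chain and ATP synthase subunits were followed in OPM-1 cells, a human plasma cell myeloma line. Members were the rows of the deposited gene table whose symbols name subunits of complexes I to IV, the electron carrier cytochrome c, or begin with ATP5, and 82 of 38478 gene rows met this rule. They comprised 37 genes of complex I, 4 of complex II, 9 of complex III, CYCS for cytochrome c, 11 of complex IV and 20 ATP5 symbols. NDUFA4 carries a complex I name and was counted with complex IV, where the protein resides. Of the 20 ATP5 symbols, 15 name ATP synthase subunits and 5 do not. Those 5 are the pseudogene copy ATP5EP2, the retrocopy ATP5L2, the read-through ATP5J2-PTCD1, and ATP5S and ATP5SL, whose proteins are not subunits of the enzyme.

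The study asked how loss of FBXW7, alone or together with loss of KMT2D, affects messenger RNA levels. The 3 groups carried RNAs named for their targets in the labels: gFBXW7_gKMT2D against both genes, gFBXW7 against FBXW7, and gLuc against luciferase as the control. Each group had 3 libraries of poly(A)-selected RNA, made strand-specific by the dUTP method. All cells were labelled wild type in genotype and grown in RPMI with 10% fetal bovine serum, so the groups differ in the targeting RNA and share everything else the labels give. FBXW7 is the substrate-binding subunit of a ubiquitin ligase and KMT2D is a histone methyltransferase of enhancers.

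Complexes I and II feed electrons from NADH and succinate to ubiquinone, complex III passes them to cytochrome c, and complex IV hands them to oxygen. Complexes I, III and IV pump protons as they do so, and ATP synthase lets protons return while it makes ATP. The nucleus encodes most subunits and the mitochondrial genome the remaining core ones, so that each complex except complex II is assembled from the products of both genomes. Plasma cells are secretory cells with a high demand for ATP.

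Nuclear respiratory factor 1 (NRF1), ETS-family factors such as GABPA, and YY1 are known regulators of these genes, and the promoters show how differently their recognition letters are spread among subunits of a single complex. RefSeq promoter windows, from 250 bases before to 50 after an annotated start on GRCh38.p14, were found for 65 of the 82 members, as 77 windows. Both strands were searched for GCGC followed by any base and TGCGC (NRF1), for CCGGAAG (ETS) and for AANATGGC (YY1), where N is any base. The stretches below were chosen because they hold several matches, and capitals mark the matched letters on either strand. They are written 5′ to 3′ on the strand of the gene. SDHA lies at chr5:218134-218319 on the plus strand, UQCR11 at chr19:1605463-1605599 on the minus strand, SDHD at chr11:112086743-112086822 on the plus strand and ATP5J at chr21:25735058-25735131 on the minus strand.
SDHA: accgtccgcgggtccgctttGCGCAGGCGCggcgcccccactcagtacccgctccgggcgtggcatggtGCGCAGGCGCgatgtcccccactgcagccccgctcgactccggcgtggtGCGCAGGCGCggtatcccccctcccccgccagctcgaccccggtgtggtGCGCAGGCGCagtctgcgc
UQCR11: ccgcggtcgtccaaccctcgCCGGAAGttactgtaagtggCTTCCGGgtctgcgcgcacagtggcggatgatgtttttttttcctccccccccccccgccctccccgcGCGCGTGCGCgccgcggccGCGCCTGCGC
SDHD: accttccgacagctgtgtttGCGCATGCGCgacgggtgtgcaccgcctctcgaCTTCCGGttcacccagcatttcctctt
ATP5J: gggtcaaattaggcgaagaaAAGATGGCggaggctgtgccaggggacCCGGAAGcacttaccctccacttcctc

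The SDHA window, for the flavoprotein of complex II, held 4 NRF1 matches whose first letters lay 166, 117, 68 and 19 bases before the start, each 49 bases from the next. UQCR11, a small subunit of complex III, held 2 ETS matches at 117 and 97 bases and 2 NRF1 matches at 29 and 10 bases before its start. SDHD, a membrane anchor of complex II, held an NRF1 match at 110 bases and an ETS match at 77 bases. ATP5J, coupling factor of the ATP synthase stalk, held a YY1 match at 57 bases and an ETS match at 30 bases. No matches overlapped in these 4 stretches.

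Over the 77 member windows, 15 held an NRF1 match (19.5%), against 5.74% of 34943 windows of all genes. An ETS match was present in 21 (27.3%), against 10.2% of all windows, and a YY1 match in 27 (35.1%), against 6.57%. None of the 3 motifs was found in 32 member windows (41.6%), against 80.1% of all windows. All 3 together occurred in 0 member windows, against 0.126% of all. A match describes letters in this window and does not show binding, and windows of the same gene share bases.

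The members were among the more abundant transcripts of these cells. Levels are given as RPKM, reads scaled by gene length and library total, so that genes of different length can be compared. The order of levels therefore also depends on the annotated gene length. The median of the 80 members that passed the filter on low counts was 109.1 RPKM in gLuc, averaged over 3 libraries. The median over all 13262 tested genes was 5.70 RPKM, and 77 of the 80 members lay above it. The filter was applied once to all 9 libraries with the groups given, and does not require reads in every group. The 2 members that did not pass were NDUFA3, a small accessory subunit of complex I, and ATP5J2-PTCD1. NDUFA3 had 2 reads in gLuc 3 and 0 in the other 8 libraries, and ATP5J2-PTCD1 had 0 reads in all 9. NDUFA3 therefore has no usable value here.

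Within complex I, NDUFS6 and NDUFS5, both small accessory subunits, stood highest at 389 ± 103 RPKM and 377 ± 111 RPKM in gLuc (SD, n = 3). NDUFV3 and NDUFA10, also accessory, stood lowest at 9.21 ± 0.487 RPKM and 8.58 ± 0.391 RPKM. NDUFA10 also had the longest annotated length of the tested members, 12550 bases. In CPM, counts scaled to library size only, NDUFA10 had a mean of 105 in gLuc, and NDUFA2 was lower at 28.0. In RPKM the complex spanned 45.4-fold from top to bottom. Overlap between genes is between their ranges over the gLuc libraries, and ignores that both genes were read in the same libraries. The order within each library was not compared. The ranges overlapped in 33 of 35 neighbouring pairs, so most neighbours in complex I were not separated by range. The breaks lay between NDUFC1 at 25.8 ± 8.37 RPKM and NDUFA5 at 13.4 ± 0.771 RPKM, and between NDUFA5 and NDUFV3.

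Complex II was the most even, with 2.39-fold between SDHA at 123 ± 18.5 RPKM and SDHC at 51.2 ± 5.35 RPKM in gLuc (SD, n = 3). SDHD followed SDHA at 109 ± 4.96 RPKM with overlapping libraries. SDHB, which holds the iron-sulfur clusters, stood at 88.9 ± 13.8 RPKM, below SDHD and above SDHC without overlap. In complex III the hinge protein UQCRH reached 1006 ± 281 RPKM, above UQCRFS1, the Rieske iron-sulfur protein, at 204 ± 52.7 RPKM. UQCRHL, a copy of UQCRH outside the rule, had 483, 345 and 289 CPM per total reads in gLuc. How the counting divided reads between UQCRH and UQCRHL was not tested, so the level of UQCRH is uncertain. The lowest complex III member in RPKM was UQCRB, a quinone-pocket subunit, at 32.6 ± 8.70 RPKM. Its annotated length was 5223 bases, and in mean CPM in gLuc it stood above CYC1, at 168 against 115.

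Complex IV had the highest median of the complexes, 331.5 RPKM over 11 genes in gLuc. COX7C led at 615.5 ± 99.5 RPKM, and NDUFA4 stood last at 30.5 ± 2.59 RPKM (SD, n = 3). In ATP synthase the 2 subunits of the catalytic head led, ATP5B at 631 ± 9.04 RPKM and ATP5A1 at 444 ± 21.0 RPKM, with no overlap between them or with the next gene. The 3 genes that encode the same ring protein differed in level: ATP5G1 had 184 ± 27.1 RPKM, ATP5G3 155.5 ± 45.7 RPKM and ATP5G2 78.1 ± 18 RPKM, with overlap between ATP5G1 and ATP5G3 and none between ATP5G3 and ATP5G2. CYCS stood at 62.1 ± 7.47 RPKM.

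**Figure D1:**
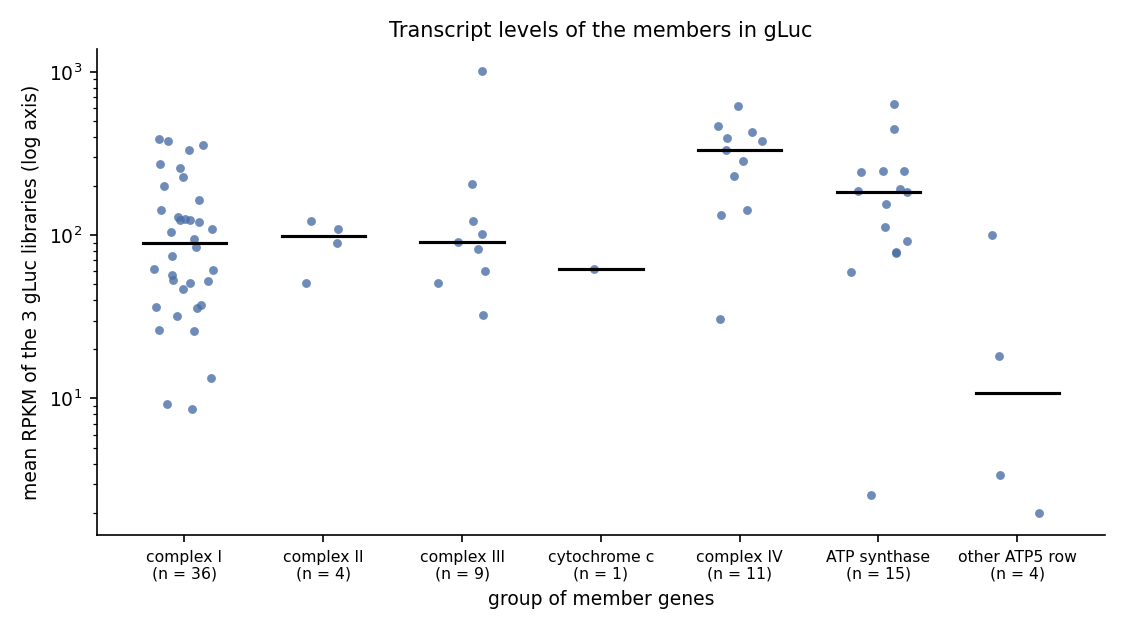
Each point is a tested member, placed at its mean RPKM over the 3 gLuc libraries on a log axis, with the groups of genes side by side and their number below; the bar is the group median. Complex IV had the highest median, 331.5 RPKM, UQCRH at 1006 RPKM was the highest gene, and ATP5E at 2.57 RPKM was the lowest subunit.

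A pair of ATP5 rows cannot be read as levels of their genes. ATP5E, the epsilon subunit of the ATP synthase stalk, shares nearly its whole sequence with the pseudogene ATP5EP2, and between 2.27% and 3.90% of the reads of the pair were given to ATP5E in the 9 libraries. ATP5E had 27, 20 and 35 reads in gFBXW7_gKMT2D, 51, 17 and 32 in gFBXW7, and 32, 19 and 12 in gLuc. ATP5EP2 had 742, 678 and 1249 reads in gFBXW7_gKMT2D, 1257, 731 and 791 in gFBXW7, and 1047, 614 and 410 in gLuc. In raw reads, both rows had the most in gFBXW7 1 and the fewest in gLuc 3. Scaled to library size, ATP5E was still highest in gFBXW7 1, at 2.76 CPM. ATP5EP2 was then highest in gFBXW7_gKMT2D 3, at 89.6 CPM against 67.9 CPM in gFBXW7 1. How the counting divided the reads was not tested. ATP5L2 took between 0.739% and 0.976% of the reads of ATP5L2 and ATP5L, its parent gene, and is uncertain in the same way.

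The libraries held 16337492 to 27076242 counted reads. FBXW7 and KMT2D were transcribed in all of them, and neither differed in any comparison in edgeR's quasi-likelihood test (lowest adjusted p = 0.904, adjusted over all genes by Benjamini-Hochberg). In CPM, counts scaled to library size, FBXW7 had 46.1, 45.2 and 71.7 CPM in gFBXW7_gKMT2D, 53.4, 55.5 and 54.8 in gFBXW7, and 53.8, 47.9 and 48.7 CPM in gLuc. KMT2D had 48.0, 107 and 28.6 CPM in gFBXW7_gKMT2D, 48.8, 65.1 and 59.1 in gFBXW7, and 41.0, 58.3 and 104.3 CPM in gLuc. An edit need not change the amount of a transcript, so these values do not check the labels. All 10 plasma cell markers were expressed, summing to 12200 to 14700 CPM in gFBXW7_gKMT2D, 14100 to 14500 CPM in gFBXW7 and 14000 to 15200 CPM in gLuc. Of 19 markers of other cell types, 2 (HBB and PECAM1) passed the filter and 7 were at 0 in every library, and the list summed to 27.7 to 39.1 CPM, 35.8 to 44.7 CPM and 26.1 to 41.6 CPM in these 3 groups.

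The members moved as a block from library to library, within groups as much as between them. For each gene, log2 CPM in a library was set against its mean over the 9 libraries. The median of this deviation over the 80 members was 0.09, -0.51 and 0.85 in gFBXW7_gKMT2D 1, 2 and 3, then 0.27, 0.04 and 0.01 in gFBXW7, and 0.17, -0.28 and -0.56 in gLuc. The highest and the second-lowest of the 9 libraries both belonged to gFBXW7_gKMT2D. The SD of these medians was 0.68 among the gFBXW7_gKMT2D libraries, 0.14 among the gFBXW7 libraries and 0.37 among the gLuc libraries, while the 3 group means were 0.14, 0.10 and -0.23. Differences between group means were thus smaller than the pooled SD within groups, 0.45.

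In gFBXW7_gKMT2D 3, 73 of 80 members exceeded their own mean, and 69 had their highest value of the 9 libraries there, against 30.8% of all tested genes. In gLuc 3 only 3 members exceeded their mean, and 56 had their lowest value there, against 16.7% of all genes. gFBXW7_gKMT2D 2 and gLuc 2 resembled gLuc 3, with 3 and 1 members above their mean. In gLuc 1 the number was 70, so libraries of the control group lay on both sides of the members' means.

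**Figure D2:**
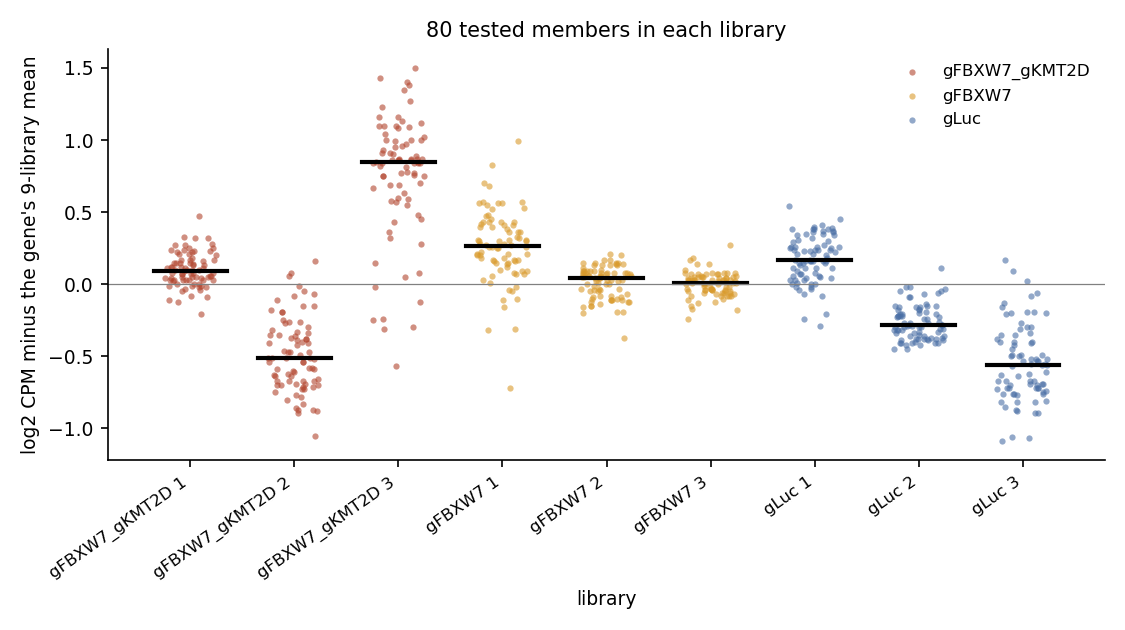
Each point is a member in a library, at its log2 CPM minus the mean of that gene over the 9 libraries, and bars are medians over 80 members. The members are highest in gFBXW7_gKMT2D 3 (median 0.85) and low in gLuc 3 (-0.56) and gFBXW7_gKMT2D 2 (-0.51), and the gFBXW7 libraries have medians of 0.27, 0.04 and 0.01.

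Transcripts of the cytosolic ribosomal proteins took 8.22%, 5.56% and 11.4% of reads in gFBXW7_gKMT2D, 8.74%, 7.61% and 6.93% in gFBXW7, and 8.40%, 6.28% and 5.13% in gLuc, which is the order of the member medians over all 9 libraries. The nuclear-retained RNA MALAT1 took 0.197%, 0.114% and 0.475% in gFBXW7_gKMT2D, 0.281%, 0.205% and 0.189% in gFBXW7, and 0.192%, 0.123% and 0.0961% in gLuc. The ribosomal protein and MALAT1 shares were highest in gFBXW7_gKMT2D 3 and lowest in gLuc 3, where the members were highest and lowest. NEAT1, another nuclear-retained RNA, did not share this order. Its share was lowest in gFBXW7_gKMT2D 3, at 0.0187%, and highest in gFBXW7_gKMT2D 2, at 0.0328%, with 0.0274% in gLuc 3. The mean gene length per read was 4128, 4698 and 3864 bases in gFBXW7_gKMT2D, 4149, 4267 and 4330 bases in gFBXW7, and 4112, 4456 and 4777 bases in gLuc, shortest in gFBXW7_gKMT2D 3 and longest in gLuc 3. The members are short, with a median table length of 1176 bases against 3908 bases over all tested genes. The part of gene length and RNA quality in the library order was not tested.

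Members differed in how far they followed this block. The ratio of highest to lowest CPM over the 9 libraries had a median of 2.75 among members, against 1.79 over the 13236 tested genes with a read in every library. It was largest for 3 small accessory subunits: NDUFC2 of complex I at 5.65, NDUFB1 of complex I at 4.93 and COX7B of complex IV at 4.83. It was smallest for NDUFA10 of complex I at 1.26, and 1.31 for both ATP5A1 and ATP5B. NDUFC2 had 62.9, 35.1 and 192 CPM in gFBXW7_gKMT2D, 129, 67.2 and 77.9 in gFBXW7, and 105.7, 54.6 and 34.0 CPM in gLuc. ATP5B had 1320, 1176 and 1008 CPM in gFBXW7_gKMT2D, 1276, 1297 and 1246 in gFBXW7, and 1185, 1137 and 1082 CPM in gLuc. NDUFC2 peaked in gFBXW7_gKMT2D 3, the library where ATP5B was lowest.

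Members that were below their mean in gFBXW7_gKMT2D 3 numbered 7. CYC1, the haem-bearing cytochrome of complex III, lay lowest at -0.57, followed by NDUFV3 at -0.31, NDUFS1 at -0.30, ATP5SL at -0.25, ATP5B at -0.24, NDUFA10 at -0.12 and UQCRC2 at -0.02. NDUFS1 carries iron-sulfur clusters of complex I and UQCRC2 is a core protein of complex III. CYC1 had 150, 115 and 80.6 CPM in gFBXW7_gKMT2D, 133, 135 and 131 in gFBXW7, and 122, 115 and 107 CPM in gLuc. The gFBXW7_gKMT2D libraries of CYC1 thus held both its highest and its lowest value.

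Core subunits are here 18 genes: the 7 conserved subunits of complex I, SDHA, SDHB, CYC1, UQCRFS1, CYCS, and ATP5A1, ATP5B, ATP5C1, ATP5G1, ATP5G2 and ATP5G3 of ATP synthase. The 58 other subunits include ATP5D and ATP5E, the small subunits of the central stalk. The core genes had a median ratio of highest to lowest library of 2.23, against 2.90 for the others, and their median table length was 1889 bases, against 985.5 bases. Length and role go together among these genes and cannot be told apart as features of this spread. Across the 80 members, the Spearman correlation of table length with the deviation was -0.47 in gFBXW7_gKMT2D 3, 0.45 in gFBXW7_gKMT2D 2 and 0.48 in gLuc 3. Over all 13262 genes it was -0.31, 0.47 and 0.51 in these libraries, and all points of a library share its reads and scaling.

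Between gFBXW7_gKMT2D and gLuc, most members had positive fold changes, and none passed the test. The median log2 fold change of the 80 members was 0.42, with a range of -0.19 to 1.03, and 76 were above 0, against 50% of all tested genes. In edgeR's quasi-likelihood test 0 members were called at an adjusted p below 0.05, where 0.0302% of all genes were called higher and 0.0226% lower. The lowest adjusted p of a member was 0.90. At an unadjusted p below 0.05, 3 members were higher and 0 lower, against 2.14% and 1.47% of all genes. DESeq2 called 0 members. The 6 members at an unadjusted p below 0.05 in DESeq2 were all higher, against 2.19% of all genes higher. Libraries of the 2 groups overlapped for every member, while 3.28% of all genes lay wholly higher and 3.69% wholly lower. In bulk RNA, fewer cells of a type and less RNA per cell cannot be told apart.

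This shift rested on gFBXW7_gKMT2D 3. Without that library the median was 0.01, 41 of 80 members were above 0 and 0 reached an unadjusted p below 0.05 in edgeR. Without gFBXW7_gKMT2D 2 it was 0.69, with 51 members higher at an unadjusted p below 0.05 and 0 called, where 9.74% of all genes were higher and 8.98% lower at that p. The control libraries moved it as well, to 0.68 without gLuc 1 and 0.25 without gLuc 3.

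**Figure D3:**
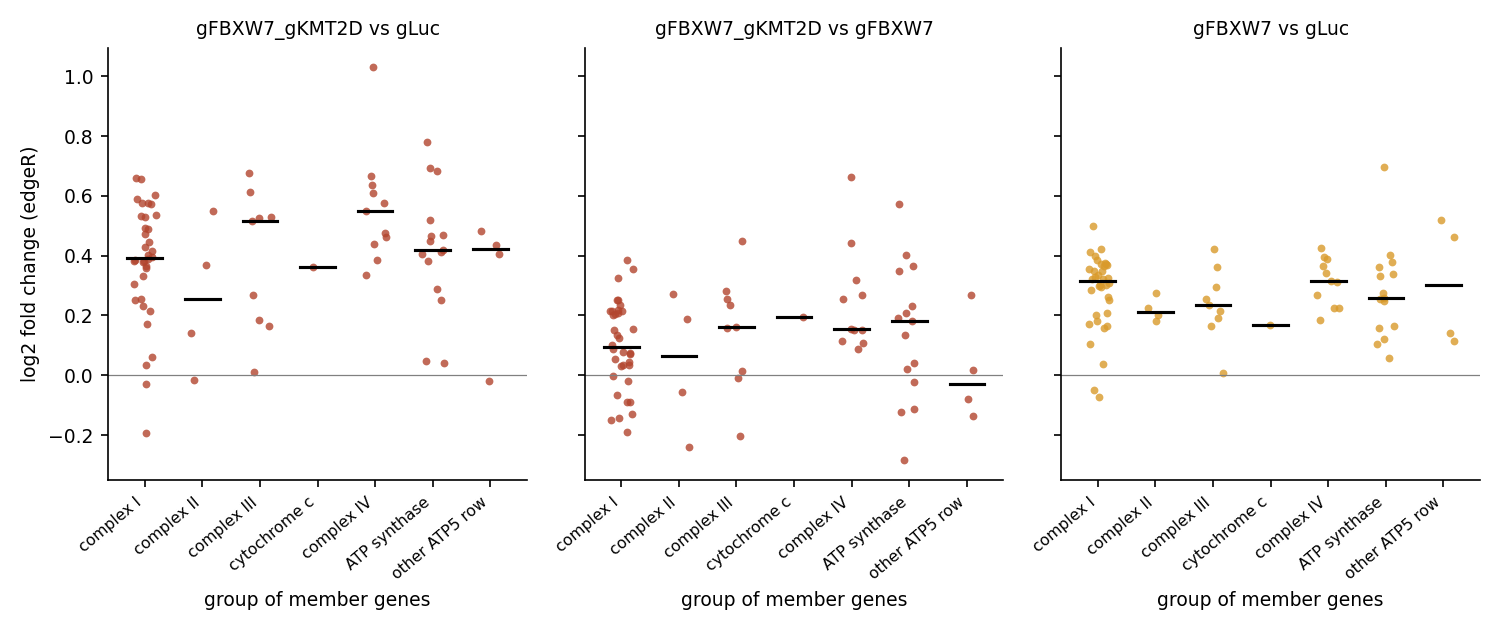
Points are the edgeR log2 fold changes of the 80 tested members in each comparison, the first-named group over the second, and bars are medians per group of genes. Members lie mostly above 0 against gLuc, with medians of 0.42 for gFBXW7_gKMT2D and 0.29 for gFBXW7, and 0 pass the adjusted test in any panel.

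Complex I had a median log2 fold change of 0.39 in gFBXW7_gKMT2D against gLuc, and -0.03 without gFBXW7_gKMT2D 3. NDUFV1, which binds NADH, had 410, 280 and 616 CPM in gFBXW7_gKMT2D, against 521, 312 and 262 CPM in gLuc. Its log2 fold change was 0.25 (SE 0.32, edgeR adjusted p = 0.902), and each group held a library higher than most of the other group. NDUFS1 had 208.5, 235.5 and 183 CPM in gFBXW7_gKMT2D, against 220, 244 and 253 CPM in gLuc. At -0.19 (SE 0.13, edgeR adjusted p = 0.902) it had the lowest fold change of the 80 members.

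Complex II had a median of 0.26, and 0.06 without gFBXW7_gKMT2D 3. SDHA, whose promoter stretch holds 4 NRF1 matches, had 742, 591 and 852 CPM in gFBXW7_gKMT2D, against 904, 682 and 623.5 CPM in gLuc, a log2 fold change of -0.02 (SE 0.19, edgeR adjusted p = 0.985). SDHB had 131, 90.1 and 219.8 CPM in gFBXW7_gKMT2D, against 121, 100.5 and 80.3 CPM in gLuc, a log2 fold change of 0.55 (SE 0.29, edgeR adjusted p = 0.902). SDHC and SDHD, the membrane anchors, had log2 fold changes of 0.14 and 0.37. All 4 genes overlapped between the groups, and no member of the complex passed the test.

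Complex III had a median of 0.52, and 0.02 without gFBXW7_gKMT2D 3. The Rieske protein gene UQCRFS1 had 308, 188.5 and 570 CPM in gFBXW7_gKMT2D, against 327.5, 233 and 178 CPM in gLuc. Its log2 fold change was 0.53 (SE 0.37, edgeR adjusted p = 0.902). CYC1, in the same electron path, stood at 0.01 (SE 0.20). CYCS, their electron acceptor, had 389, 278 and 632 CPM in gFBXW7_gKMT2D, against 394, 334 and 282 CPM in gLuc, a log2 fold change of 0.36 (SE 0.27). In UQCRFS1 and CYCS, gFBXW7_gKMT2D 3 stood alone at the top and the other 2 libraries lay within or near the gLuc range.

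Complex IV had the highest median of the complexes, 0.55, with all 11 genes above 0, and 0.06 without gFBXW7_gKMT2D 3. COX7B, a small subunit of the complex, had 262, 153 and 616.5 CPM in gFBXW7_gKMT2D, against 218, 160 and 128 CPM in gLuc. Its log2 fold change of 1.03 was the largest of the 80 (SE 0.43, unadjusted p = 0.0381, edgeR adjusted p = 0.902), and it was 0.30 without gFBXW7_gKMT2D 3. COX5A, a matrix-side subunit, had 245.5, 161 and 420 CPM in gFBXW7_gKMT2D, against 204.5, 172 and 144 CPM in gLuc. Its log2 fold change was 0.67 (SE 0.30, unadjusted p = 0.0489, edgeR adjusted p = 0.902). NDUFA4 had a log2 fold change of 0.44 (SE 0.20), and COX4I1, the largest nuclear-encoded subunit, one of 0.48 (SE 0.36).

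ATP synthase had a median of 0.42, and 0.07 without gFBXW7_gKMT2D 3. ATP5J2, a membrane subunit, had 74.9, 47.5 and 101.8 CPM in gFBXW7_gKMT2D, against 44.3, 46.4 and 47.6 CPM in gLuc. It had the lowest p of the 80 members (log2 fold change 0.69, SE 0.29, unadjusted p = 0.0361, edgeR adjusted p = 0.902), and gFBXW7_gKMT2D 2 lay within the gLuc range. ATP5D, the delta subunit of the central stalk, had 171, 103 and 291 CPM in gFBXW7_gKMT2D, against 152, 100.2 and 75.8 CPM in gLuc, a log2 fold change of 0.78 (SE 0.36). The head subunits ATP5A1 and ATP5B stood at 0.05 and 0.04, and the ring genes ATP5G1, ATP5G2 and ATP5G3 at 0.38, 0.25 and 0.52. The 18 core genes defined above had a median of 0.33 and the 58 others 0.46, and these were 0.02 and 0.00 without gFBXW7_gKMT2D 3.

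**Figure D4:**
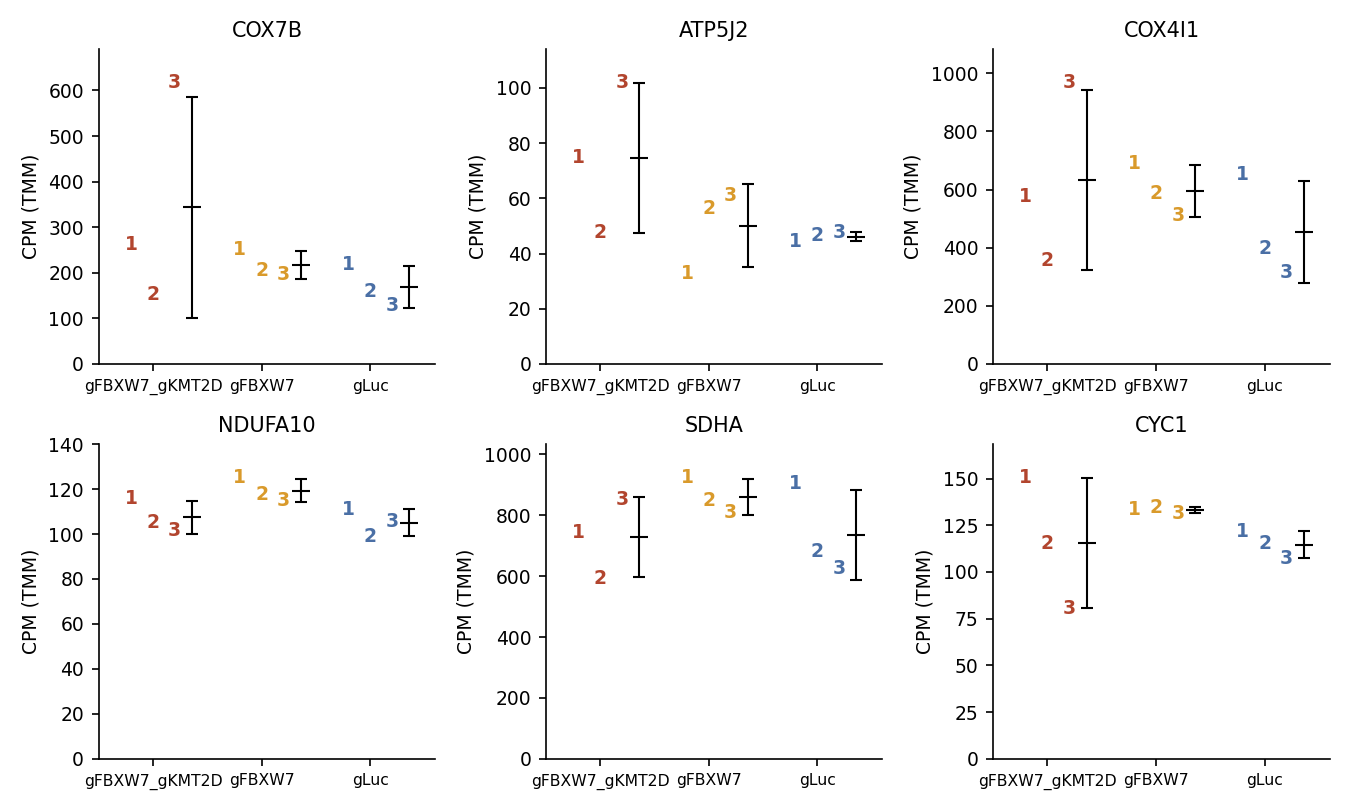
TMM-scaled CPM of 6 members, with digits marking replicates 1 to 3 of each group and lines the mean ± SD (n = 3). COX7B, ATP5J2 and COX4I1 peak in gFBXW7_gKMT2D 3, where CYC1 is lowest, NDUFA10 is higher in all gFBXW7 than in all gLuc libraries, and SDHA overlaps among all 3 groups.

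Between gFBXW7_gKMT2D and gFBXW7, which asks what targeting KMT2D adds, members differed less. Their median log2 fold change was 0.15, with a range of -0.28 to 0.66 and 61 of 80 above 0, against 54.6% of all genes. The lower end is ATP5E, whose reads are uncertain, and the next is -0.24 for SDHA. In edgeR 0 members were called, where 0.0302% of all genes were called in each direction, and 0 members reached an unadjusted p below 0.05, against 2.30% of all genes higher and 1.92% lower. DESeq2 likewise gave 0 and 0, against 2.13% of all genes higher and 1.96% lower at an unadjusted p below 0.05. No member was free of overlap, against 4.35% of all genes higher and 5.20% lower. Without gFBXW7_gKMT2D 3 the median was -0.28, with 11 members above 0, so this library also set the direction.

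The lowest p here again belonged to ATP5J2, with 74.9, 47.5 and 101.8 CPM in gFBXW7_gKMT2D, against 32.8, 56.5 and 61.0 CPM in gFBXW7. Its log2 fold change was 0.57 (SE 0.29, unadjusted p = 0.0729, edgeR adjusted p = 1.0), with libraries of both groups interleaved. ATP5J had 146.5, 98.2 and 189.5 CPM in gFBXW7_gKMT2D, against 94.2, 110 and 133 CPM in gFBXW7, a log2 fold change of 0.36 (SE 0.22). COX7B had a log2 fold change of 0.66 and -0.06 without gFBXW7_gKMT2D 3. UQCR10, a small subunit of complex III, and ATP5C1, the gamma shaft of ATP synthase, had log2 fold changes of 0.45 (SE 0.29) and 0.23 (SE 0.15). By complex, medians were 0.10 for complex I, 0.07 for complex II, 0.16 for each of complexes III and IV, and 0.18 for ATP synthase. Without gFBXW7_gKMT2D 3 these were -0.34, -0.17, -0.27, -0.25 and -0.18, in the same order.

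Between gFBXW7 and gLuc, 78 of 80 members had positive fold changes, against 49.3% of all genes, with a median of 0.29 and a range of -0.07 to 0.70. The upper end is ATP5E, whose reads are uncertain, and the next is 0.52 for ATP5L2, uncertain in the same way. In edgeR 0 members and 0% of all genes were called, and 0 members reached an unadjusted p below 0.05, against 0.648% of all genes higher and 0.927% lower. DESeq2 called 0 members, with 0 at an unadjusted p below 0.05, against 0.626% of all genes higher and 0.829% lower. In 5 members all gFBXW7 libraries exceeded all gLuc libraries (NDUFA10, NDUFB10, ATP5B, CYC1 and ATP5SL) and in 0 the reverse held, against 4.37% and 4.49% of all genes. That is near the share over all genes. The medians by complex were 0.32 for complex I, 0.21 for complex II, 0.23 for complex III, 0.32 for complex IV and 0.26 for ATP synthase.

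NDUFA10 had 125, 118 and 115 CPM in gFBXW7, against 111, 98.9 and 105.6 CPM in gLuc, a log2 fold change of 0.18 (SE 0.11, unadjusted p = 0.141, edgeR adjusted p = 0.956) with no overlap. NDUFB10, a membrane-arm subunit of complex I, had 108.5, 105 and 104.6 CPM in gFBXW7, against 103, 77.5 and 65.4 CPM in gLuc, a log2 fold change of 0.37 (SE 0.28). In both genes the gFBXW7 libraries were close together and gLuc 1 was nearest to them. UQCRC1, a core protein of complex III, and NDUFA9 of complex I each had a log2 fold change of 0.26, with SEs of 0.17 and 0.19.

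Comparisons that share a group are not independent, so the 3 sets of fold changes are given side by side without a measure of likeness. Members with and without a promoter motif had similar medians. In gFBXW7_gKMT2D against gLuc these were 0.43 with and 0.41 without an NRF1 match, 0.47 and 0.39 for ETS, and 0.44 and 0.39 for YY1, over 64 tested members with a window. In gFBXW7_gKMT2D against gFBXW7 they were 0.21 and 0.13, 0.13 and 0.15, and 0.15 and 0.14 for the 3 motifs in that order. In gFBXW7 against gLuc they were 0.26 and 0.30, 0.36 and 0.27, and 0.27 and 0.30.

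The transcription factors behind those motifs were also measured. Of 15 regulators of respiratory chain transcription, 0 were called in any comparison in edgeR and 0 reached an unadjusted p below 0.05, with medians of -0.03 for gFBXW7_gKMT2D against gLuc, 0.09 for gFBXW7_gKMT2D against gFBXW7 and 0.00 for gFBXW7 against gLuc. In gFBXW7_gKMT2D against gLuc they ranged from -0.17 to 0.29. NRF1 had 27.8, 26.0 and 21.9 CPM in gFBXW7_gKMT2D, 27.8, 26.5 and 25.4 in gFBXW7, and 28.2, 26.5 and 26.2 CPM in gLuc. GABPA had 36, 50.1 and 30.9 CPM in gFBXW7_gKMT2D, 33.2, 35.8 and 42.1 in gFBXW7, and 31.4, 47.8 and 58.4 CPM in gLuc. Per total reads, GABPA was lowest in gFBXW7_gKMT2D 3 and highest in gLuc 3, and NRF1 varied little. The CPM values of members are TMM-scaled and these are not, so the order of GABPA cannot be set against theirs.

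Assembly factors, which build the complexes without remaining in them, had smaller medians than the subunits. In gFBXW7_gKMT2D against gLuc these were 0.17 over 15 factors of complex I, 0.12 over 10 of complexes II and III, 0.26 over 23 of complex IV and 0.24 over 3 of ATP synthase. Single factors ranged from -0.20 to 0.54, -0.07 to 0.42, -0.21 to 0.60 and -0.10 to 0.38 in these lists. In gFBXW7_gKMT2D against gFBXW7 the medians were 0.02, -0.07, 0.03 and 0.07, and in gFBXW7 against gLuc 0.16, 0.12, 0.24 and 0.16. In edgeR 0 of these factors were called in any comparison, and the 1 at an unadjusted p below 0.05 was COX20, which helps insert a core subunit of complex IV. COX20 had 9.26, 9.86 and 6.79 CPM in gFBXW7_gKMT2D, against 7.01, 6.64 and 6.50 CPM in gLuc (log2 fold change 0.42, SE 0.15, unadjusted p = 0.0193). Whether the lists differ from the subunits was not tested.

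Of 10 subunit isoforms known from other tissues or as copies, 3 passed the filter and 5 were at 0 in all libraries, among them the lung isoform COX4I2 and the heart and muscle isoform COX6A2. NDUFA4L2, the hypoxia-linked relative of NDUFA4, had 8.03, 6.39 and 5.94 CPM in gFBXW7_gKMT2D, against 5.46, 5.4 and 4.62 CPM in gLuc. All 3 gFBXW7_gKMT2D libraries were higher than those of gLuc, where 3.28% of all genes lay wholly higher. The log2 fold change was 0.46 with an unadjusted edgeR p of 0.0273, and it was not called. At an unadjusted p below 0.05, 2.14% of all genes were higher. The gFBXW7 libraries, at 5.50, 6.61 and 6.10 CPM, also lay above those of gLuc, so this was not particular to gFBXW7_gKMT2D.

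Subunits encoded by mitochondrial DNA did not share the library order of their nuclear-encoded partners. Their 13 messenger RNAs together took 3.63%, 3.67% and 2.04% of reads in gFBXW7_gKMT2D, 0.638%, 1.52% and 1.54% in gFBXW7, and 1.64%, 3.02% and 3.33% in gLuc. The nuclear-encoded members took 1.80%, 1.37% and 2.33% of reads in gFBXW7_gKMT2D, 1.96%, 1.74% and 1.74% in gFBXW7, and 1.86%, 1.49% and 1.30% in gLuc. gFBXW7_gKMT2D 3 had the highest nuclear-encoded share and the lowest mitochondrial share of its group, and gLuc 3 the reverse within gLuc. In gFBXW7_gKMT2D against gFBXW7, the 13 mitochondrial genes had a median log2 fold change of 1.26, with a range of 1.02 to 1.71, 13 higher at an unadjusted p below 0.05, against 2.30% of all genes, and 0 called in edgeR. In gFBXW7_gKMT2D against gLuc the median was 0.33 (-0.21 to 0.71) with 1 higher gene, against 2.14% of all genes, and in gFBXW7 against gLuc -1.03 (-1.48 to -0.39) with 10 lower genes, against 0.927% of all genes, again with 0 called. The difference in pattern between the 2 genomes' genes was not tested.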

How the data were processed

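Messenger RNA of OPM-1 cells was read in 9 libraries, 3 per group, which the labels call independent biological replicates. The submitters' processing notes name Trimmomatic, STAR, featureCounts, DESeq2 and build GRCh38, and give no versions. Per the file headers, the authors' table gives every gene a raw read count and an RPKM value in each library. Recomputing the deposited RPKM from count, table length and library total gave relative differences of at most 8.5e-07. An unnamed row of totals was left out.

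The count model was edgeR 4.0.16 in R 4.3.3 (filterByExpr with the groups, TMM, quasi-likelihood test on all 9 libraries, Benjamini-Hochberg over 13262 genes, threshold 0.05). CPM values of members and of the targeted genes are TMM-scaled, those of the other lists are per total reads, and log2 CPM used a prior count of 2. Alternatives were DESeq2 1.42.0, limma 3.58.1 on log2(RPKM + 1), 1 surrogate variable from sva 3.50.0, other scalings and filters, a replicate block, removal of a length trend, and each library left out. The fit was tested on simulated counts without a shift shared by genes of a library, so that test does not cover the movement of members as a block. Members and lists were chosen with earlier results of these data known. Named members are the 5 with the lowest p in each comparison, the highest and lowest RPKM of each complex, those failing the filter and a set of electron carriers and catalytic subunits. Any other was named after its values were seen. A member that this rule names is not reported here.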

Additional observations from a re-analysis of the deposited data

How the results depend on the processing

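In all alternatives, 0 members were called in each of the 3 comparisons. Few genes of any kind were called. The most were 37 higher and 88 lower of 13262, in the surrogate variable fit of gFBXW7_gKMT2D against gFBXW7. A count of 0 members is therefore near the share over all genes. The surrogate variable fit in edgeR came nearest to calling a member. In gFBXW7_gKMT2D against gFBXW7, 9 members were higher and 7 lower at an unadjusted p below 0.05, against 6.56% and 10.2% of all genes. The lowest adjusted p of a member there was 0.053. In gFBXW7_gKMT2D against gLuc, 9 were higher and 2 lower, against 4.05% and 5.37% of all genes, with a lowest adjusted p of 0.11. Over the settings that keep all libraries, the median log2 fold change of the members ran from 0.04 (1 surrogate variable) to 0.44 (DESeq2) for gFBXW7_gKMT2D against gLuc, from -0.01 (limma) to 0.16 for gFBXW7_gKMT2D against gFBXW7, and from 0.05 (1 surrogate variable) to 0.30 for gFBXW7 against gLuc. With the gene length trend removed these medians were 0.19, 0.07 and 0.16. Leaving out each library in turn gave 0.01 to 0.69, -0.28 to 0.40 and 0.13 to 0.51. Without the filter on low counts, 29 members were higher at an unadjusted p below 0.05 in gFBXW7_gKMT2D against gLuc, where 2.66% of all genes were higher and 1.13% lower, and 0 members were called.

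Fold changes of 8 named genes in gFBXW7_gKMT2D against gLuc turned sign in some settings, among them CYCS (0.36 as reported), NDUFV1 (0.25) and ATP5G2 (0.25). With limma CYC1 was -0.10, ATP5A1 -0.03 and ATP5B -0.04. With the length trend removed CYC1 was -0.05, ATP5B -0.03 and SDHA 0.06. With 1 surrogate variable SDHC was -0.01, NDUFV1 -0.06, ATP5A1 -0.03 and ATP5G2 -0.04. Leaving out libraries gave -0.01 to 0.60 for CYCS, -0.23 to 0.22 for CYC1, -0.14 to 0.16 for SDHA, -0.02 to 0.27 for SDHC, -0.08 to 0.60 for NDUFV1, -0.01 to 0.12 for ATP5A1, -0.06 to 0.14 for ATP5B and -0.05 to 0.49 for ATP5G2. In gFBXW7_gKMT2D against gFBXW7, COX7B ranged from -0.06 to 1.02. The cause was not tested.

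Correlations of deviations ranged from -0.586 to 0.454 between libraries of the same replicate number, and from -0.735 to 0.72 between libraries of different numbers. Deviations from a group mean are tied to each other, so these values do not show whether libraries of a number share a batch. With a replicate block the medians were 0.40, 0.09 and 0.28, 0 members were called, and CYC1 was -0.02 in gFBXW7_gKMT2D against gLuc. With 3 libraries per group and an SD of 0.68 among the gFBXW7_gKMT2D medians, shifts of the size seen here could not be told from the spread.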
